A study of Mus musculus with 103 samples.

Results

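The 8 genes described here encode the ephrin-B ligands (Efnb1, Efnb2 and Efnb3) and the EphB receptors (Ephb1, Ephb2, Ephb3, Ephb4 and Ephb6), which is 8 of the 51456 gene symbols in the deposited tables. They were taken by symbol. The family was singled out because the response of Ephb2 to a sclerostin antibody, averaged over 3 times of dosing, differed between ApoE knockout and wild-type mice. That response is therefore given for Ephb2 as a description, without a test.

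Eph receptors are receptor tyrosine kinases whose ligands, the ephrins, sit on the surface of neighbouring cells. Contact signals both ways: forward through the kinase of the receptor-bearing cell, and in reverse through the short cytoplasmic tail that ephrin-B ligands carry. In blood vessels, Efnb2 marks arterial endothelium and is also made by mural cells, while its receptor Ephb4 marks venous endothelium. In the mouse gut, Ephb2 and Ephb3 are transcribed in response to Wnt signalling, the pathway that sclerostin antagonises.

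The libraries, 31 of week 3, 34 of week 8 and 38 of week 16, were made from the aortic arch of single, ovariectomized female C57BL/6 mice that had eaten a diet with 42% of calories from fat since before surgery. The mice either lacked apolipoprotein E (ApoE KO) or carried it (WT), and had been dosed under the skin once a week with Scl-Ab or with vehicle. Scl-Ab is r13C7, a form of romosozumab on rat frameworks that binds the Wnt antagonist sclerostin, given at 10 mg/kg. Tissue was taken after 3, 8 and 16 weeks (day22, day57 and day113), at ages of 12 to 13, 17 to 18 and 25 to 26 weeks. At week 3 there were 9 KO Scl-Ab, 8 KO vehicle, 6 WT Scl-Ab and 8 WT vehicle libraries. At week 8 these numbered 10, 10, 9 and 5 in the same order, and at week 16 they numbered 10, 10, 8 and 10. Mice of a dosing group were housed together, and cages are not given per library.

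Values are deposited FPKM-type values, called values below. Differences are on the scale of log2(value + 1), given ± SE. Adjusted p-values are limma's, by Benjamini-Hochberg over 14637 genes. Arterial wall markers were present in every library, with a median Acta2 value of 6509 (smooth muscle actin) and a median Pecam1 value of 149 (endothelium). Apoe reached at most 18.2 in KO libraries, against at least 219.9 in WT libraries. Fat and muscle markers varied widely between libraries although fat had been swabbed off the arch. KO Scl-Ab replicate 9 and WT vehicle replicate 4, both of week 3, held the 2 highest summed levels of skeletal muscle and of cardiomyocyte markers. In such bulk tissue, fewer cells of a type and less RNA per cell cannot be told apart.

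The promoters of the receptor that named the family, Ephb2, of the other receptors and ligand whose differences are described most fully, Ephb3, Ephb4 and Efnb2, are printed from RefSeq (GRCm38.p6), 250 bases before to 50 bases after the start, 5′ to 3′ on the gene's strand. They lie at chr4:136835963-136836262 on the minus strand (Ephb2), chr16:21204545-21204844 on the plus strand (Ephb3), chr5:137349859-137350158 on the plus strand (Ephb4) and chr8:8661193-8661492 on the minus strand (Efnb2). Capitals mark the GC box GGGCGG or its reverse complement CCGCCC.
Ephb2: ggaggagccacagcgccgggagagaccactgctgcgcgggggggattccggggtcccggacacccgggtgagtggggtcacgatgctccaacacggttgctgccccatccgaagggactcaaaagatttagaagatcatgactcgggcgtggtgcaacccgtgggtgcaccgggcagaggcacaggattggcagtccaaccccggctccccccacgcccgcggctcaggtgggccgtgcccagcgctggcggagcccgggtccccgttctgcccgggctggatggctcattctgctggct
Ephb3: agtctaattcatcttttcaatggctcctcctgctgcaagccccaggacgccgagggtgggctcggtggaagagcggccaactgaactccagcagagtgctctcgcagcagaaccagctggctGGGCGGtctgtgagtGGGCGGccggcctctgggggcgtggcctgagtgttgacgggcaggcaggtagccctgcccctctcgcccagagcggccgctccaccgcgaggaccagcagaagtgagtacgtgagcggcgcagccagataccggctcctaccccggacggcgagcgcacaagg
Ephb4: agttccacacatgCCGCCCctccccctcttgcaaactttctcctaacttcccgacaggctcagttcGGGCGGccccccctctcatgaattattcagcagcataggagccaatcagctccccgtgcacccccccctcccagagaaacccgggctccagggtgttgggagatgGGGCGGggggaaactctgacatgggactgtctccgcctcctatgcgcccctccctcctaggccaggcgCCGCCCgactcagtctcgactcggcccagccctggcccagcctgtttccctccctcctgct
Efnb2: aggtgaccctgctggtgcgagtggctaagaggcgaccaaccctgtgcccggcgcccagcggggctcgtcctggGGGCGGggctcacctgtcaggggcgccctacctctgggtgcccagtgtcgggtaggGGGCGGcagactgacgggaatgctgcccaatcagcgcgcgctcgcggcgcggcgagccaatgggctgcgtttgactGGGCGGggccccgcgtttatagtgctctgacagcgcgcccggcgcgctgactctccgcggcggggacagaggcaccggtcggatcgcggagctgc
The windows of Ephb3, Ephb4 and Efnb2 held 2, 4 and 3 GC boxes, and that of Ephb2 held none. In 32851 mouse promoters of the same length, 35.7% held at least 1 on either strand. Of the other members, Ephb6 held 5, Ephb1 and Efnb1 none, and Efnb3 had no matched window. The Wnt-pathway motif TCF/LEF (ATCAAAG, in 3.73% of all promoters) and the E-box (CACGTG, in 7.15%) were in none of the 7 matched windows, on either strand. The Notch-pathway motif RBPJ (TGGGAA, in 25.6%) occurred 2 times, both in Efnb1. The windows were 55.7% (Ephb1) to 76.3% (Ephb6) G and C, against a median of 52.7% over all promoters. Such matches describe letters in a window and say nothing of binding.

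Ligand Efnb2 and receptor Ephb4 had the highest values of the family. Efnb2 had a median of 12.9 over all libraries, with a range of 7.29 to 24.6, and Ephb4 a median of 12.7, with a range of 8.81 to 20.6. Their order was not fixed, since Efnb2 exceeded Ephb4 in 54 libraries and not in the others. Below them stood Ephb6, a receptor whose kinase domain is catalytically inactive, with a median of 4.18 (1.58 to 6.50), and Efnb1, the X-linked ligand, with a median of 3.96 (2.29 to 9.70). Ephb6 exceeded Efnb1 in 58 libraries, so these neighbours did not separate either. Ephb3 followed at 2.85 (1.35 to 6.58) and Ephb2 at 2.25 (0.830 to 4.21), with Ephb3 above Ephb2 in 76 libraries.

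Ephb1 and Efnb3 were scarcely represented in the arch. Ephb1, a receptor best known from axon guidance, had a median of 0.620 and a range of 0.187 to 1.32. It was above Efnb3 in 98 libraries and below Ephb2 in every library. It passed the filter on low values (at least 1 in at least 5 libraries) through 9 libraries, 1 KO and 8 WT. Since mainly WT libraries carried it past the filter, its knockout differences below are partly a condition of its being tested. Efnb3, a ligand of neurons at the midline, had a median of 0.174, was listed at 0 in 1 library, reached 1 in only 1 library, KO Scl-Ab replicate 9 of week 3 at 1.43, and was not tested. By its median value, Efnb2 stood at percentile 64.1 of the tested genes and Ephb1 at percentile 7.28.

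**Figure D1:**
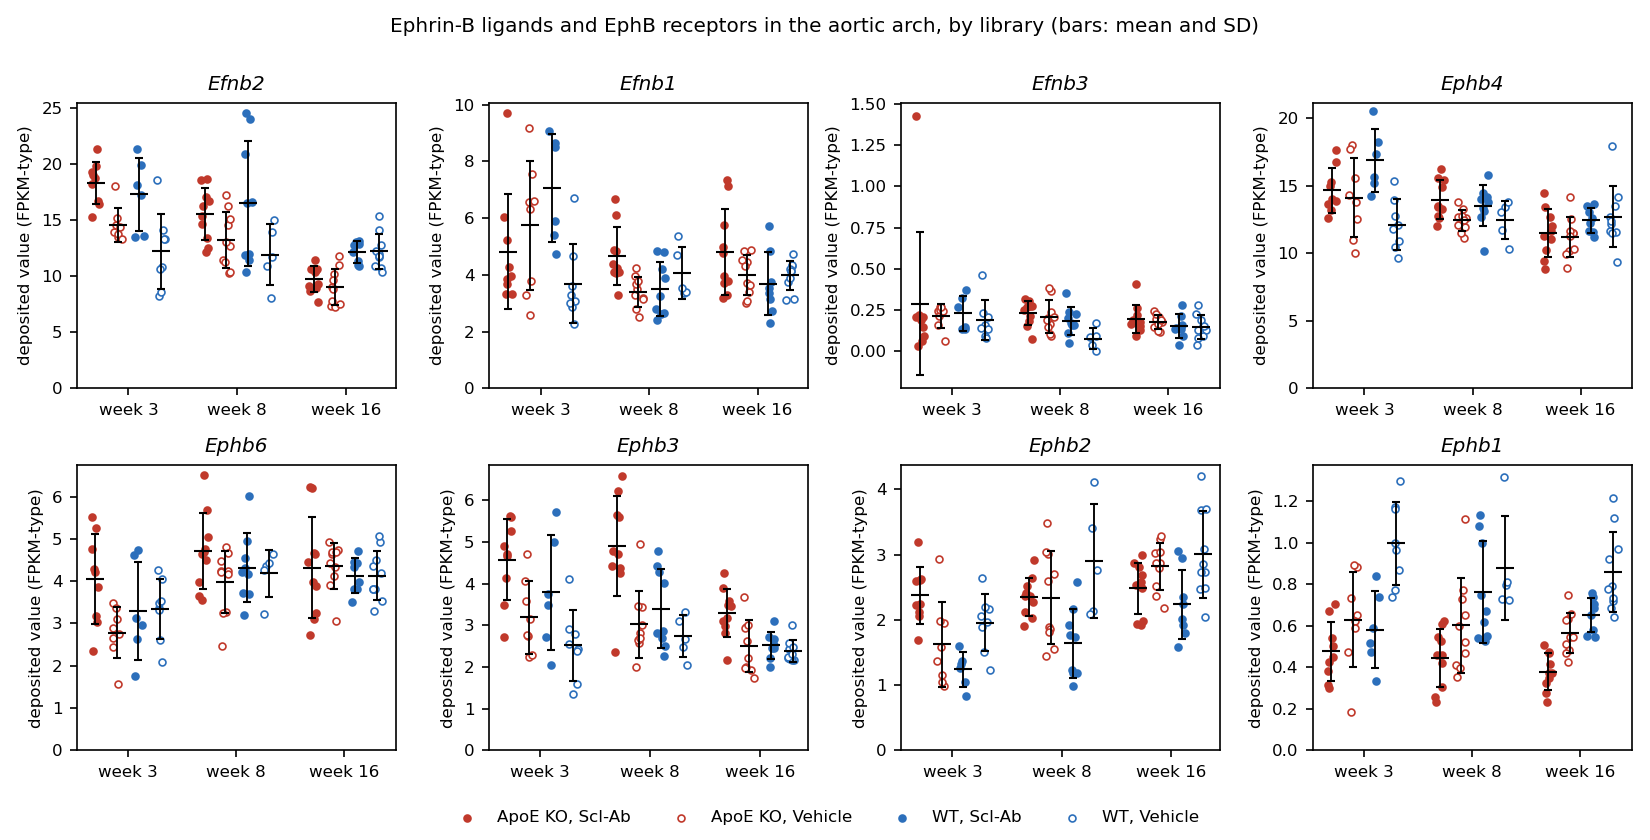
Each point is 1 library's deposited value (vertical axes, FPKM-type units, each starting at 0 apart from Efnb3, whose axis runs below 0 to hold an error bar) by week of dosing; filled red is KO Scl-Ab, open red KO vehicle, filled blue WT Scl-Ab and open blue WT vehicle, and black bars are the mean and SD. Efnb2 of KO libraries sits lowest at week 16 (7.29 to 11.8), and Ephb2 of WT Scl-Ab libraries sits lowest at week 3 (0.830 to 1.60).

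Ephb2 is a receptor for all 3 ephrin-B ligands. At week 3 its lowest, median and highest values were 1.70, 2.25 and 3.19 in KO Scl-Ab libraries, against 0.985, 1.48 and 2.94 in KO vehicle libraries. In WT mice the order of the arms was the opposite, with 0.830, 1.30 and 1.60 under Scl-Ab, against 1.23, 2.01 and 2.65 under vehicle. All 9 KO Scl-Ab values lay above all 6 WT Scl-Ab values, while the vehicle groups overlapped.

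At week 8 the KO medians were close and the vehicle values spread wider, with 1.91, 2.36 and 2.91 under Scl-Ab, against 1.45, 2.24 and 3.48 under vehicle. WT Scl-Ab libraries had 0.991, 1.73 and 2.57 as lowest, median and highest, against 2.13, 3.41, 2.09, 4.12 and 2.76 in the 5 WT vehicle libraries. Of the 9 WT Scl-Ab values, 7 lay below the lowest WT vehicle value. At week 16 the 4 groups overlapped. Values were 1.92, 2.56 and 2.99 in KO Scl-Ab, 2.19, 2.87 and 3.29 in KO vehicle, 1.59, 2.13 and 3.05 in WT Scl-Ab and 2.04, 2.80 and 4.21 in WT vehicle libraries.

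As log2 differences, Scl-Ab minus vehicle was 0.39 ± 0.11, 0.03 ± 0.10 and -0.14 ± 0.10 in KO mice at weeks 3, 8 and 16, against -0.39 ± 0.13, -0.56 ± 0.13 and -0.30 ± 0.11 in WT mice (SE). The response of KO mice minus that of WT mice, which is the quantity the family was chosen on, was 0.78 ± 0.17, 0.59 ± 0.17 and 0.17 ± 0.15 at the 3 times and averaged 0.51 ± 0.09. It was thus carried by weeks 3 and 8. The other members had smaller means, but Ephb2 was chosen on this quantity, so that order is not a result. Ephb6 averaged 0.19 ± 0.10, Ephb3 0.18 ± 0.11, Ephb1 0.04 ± 0.06, Efnb1 -0.05 ± 0.13, Efnb2 -0.09 ± 0.10 and Ephb4 -0.10 ± 0.07. Behind the mean of Efnb1 lay opposite weekly values, -0.98 ± 0.23 at week 3 against 0.54 ± 0.23 and 0.30 ± 0.21 at weeks 8 and 16. That week 3 value was -0.56 with tissue scores as covariates and -1.38 with array weights.

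Apart from Ephb2, more members passed in WT mice at week 3 than in any other treatment comparison: 4 of the 5 tested members other than Ephb1 rose. These 4 stand beside 26.9% of all tested genes called in that comparison (13.7% higher, 13.2% lower). Both tested ligands were among those that rose. Efnb1 values were 4.74, 7.21 and 9.08 (lowest, median, highest) in WT Scl-Ab libraries, against 2.29, 3.18 and 6.71 in WT vehicle libraries. Only replicate 4 of the vehicle group reached into the Scl-Ab range. The log2 difference of 0.79 ± 0.17 was the largest of the members (limma, adjusted p = 0.000588). Efnb2 values were 13.5, 17.7 and 21.3 under Scl-Ab, against 8.26, 12.1 and 18.6 under vehicle, which overlapped (0.49 ± 0.13, limma adjusted p = 0.00443).

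Among the receptors, Ephb4 values in WT mice at week 3 were 14.3, 16.5 and 20.6 under Scl-Ab, against 9.67, 11.9 and 15.4 under vehicle. A single vehicle library lay inside the Scl-Ab range (0.45 ± 0.10, limma adjusted p = 0.000536). Ephb3, a receptor that shares ligands with Ephb2, rose by 0.43 ± 0.15 (limma adjusted p = 0.0203), with wide overlap between 2.05 to 5.73 under Scl-Ab and 1.35 to 4.11 under vehicle. That call was lost without WT Scl-Ab replicate 1, WT Scl-Ab replicate 6 or WT vehicle replicate 6. Ephb1 had 0.335, 0.551 and 0.841 under Scl-Ab, against 0.737, 0.980 and 1.30 under vehicle, and fell in a fit with no filter on low values (-0.34 ± 0.08, limma adjusted p = 0.00418). Ephb6 differed by -0.04 ± 0.13 (limma adjusted p = 0.868).

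Markers of fat moved with this comparison. In WT mice at week 3, 7 of 10 white adipocyte and 8 of 10 brown adipocyte markers were higher under Scl-Ab. Summed white adipocyte markers were 1116, 4545 and 9148 (lowest, median, highest) in WT Scl-Ab libraries, against 437, 1252 and 7676 in WT vehicle libraries, and no marker of the list was at 0 throughout. Of 12 endothelial markers 5 were higher and 1 lower, and of 10 smooth muscle markers 3 were lower. Of 15 circadian clock genes, 3 were higher and 4 lower. Without the 26 libraries of high tissue carry-over, 1 of the 6 members (Efnb2, 0.78) and 299 genes were called; 4 of the 6 WT Scl-Ab and 2 of the 8 WT vehicle libraries of week 3 were among those left out. The other differences were then 0.56 for Ephb3, 0.52 for Efnb1, 0.34 for Ephb4 and -0.38 for Ephb1. With the main components of the clock genes as covariates, 0 members and 0 genes were called. With tissue scores as covariates, 5 of the 6 members (Ephb1 counted among the 6) and 1037 genes were called. The part of fat tissue or of the clock genes in these differences was not tested.

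In KO mice, Ephb6 and Ephb3 rose under Scl-Ab at week 3, where 2 of 6 members were called, beside 9.15% of all genes. Ephb6 had 2.35, 4.22 and 5.51 in KO Scl-Ab libraries, against 1.58, 2.82 and 3.49 in KO vehicle libraries, and 6 of the 9 Scl-Ab values exceeded every vehicle value (0.40 ± 0.12, limma adjusted p = 0.0191). Ephb3 had 2.71, 4.70 and 5.62 under Scl-Ab, against 2.23, 2.96 and 4.71 under vehicle (0.41 ± 0.13, limma adjusted p = 0.0320). Efnb2 differed by 0.31 ± 0.12 (limma adjusted p = 0.0819), and no adipocyte marker was called in KO mice at this week. These calls leaned on single libraries: without KO vehicle replicate 1 or KO Scl-Ab replicate 1, neither receptor passed. The Ephb3 call was also lost without KO vehicle replicate 3, or without KO Scl-Ab replicate 4, 5, 7 or 8. With clock components as covariates Ephb6 was at 0.32 (limma adjusted p = 0.0846) and Ephb3 at 0.17 (limma adjusted p = 0.384).

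At week 8 Ephb3 alone passed among the 6 members in KO mice, beside 1.81% of all genes. Its values were 2.35, 4.74 and 6.58 under Scl-Ab, against 2.00, 2.76 and 4.95 under vehicle. Of the 10 Scl-Ab values 9 exceeded all vehicle values but 1, that of replicate 10 (0.54 ± 0.12, limma adjusted p = 0.00930). With clock components as covariates the difference was 0.24 and not called (limma adjusted p = 0.987). The KO Scl-Ab libraries of week 8 also had the highest approximate depth of any group, a mean of 1.23 relative to the median library. The part of depth in the result was not tested. Efnb1 differed by 0.35 ± 0.14 (limma adjusted p = 0.165) and was called with array weights (0.33, limma adjusted p = 0.0306). In WT mice at week 8, limma called 0 members and 0% of genes. With an unadjusted p under 0.05 there were 1 member (Efnb2, 0.40 ± 0.14) and 1497 genes.

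At week 16 limma called 0 of 6 members in either genotype. In KO mice 0.0137% of genes were called, and 2 members (Ephb1 and Ephb3) and 2103 genes had an unadjusted p under 0.05. In WT mice 0.00683% were called, with 1 member (Ephb1) and 797 genes under the unadjusted level. Ephb3 differed by 0.30 ± 0.12 in KO mice (limma adjusted p = 0.235) and by 0.06 ± 0.13 in WT mice.

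**Figure D2:**
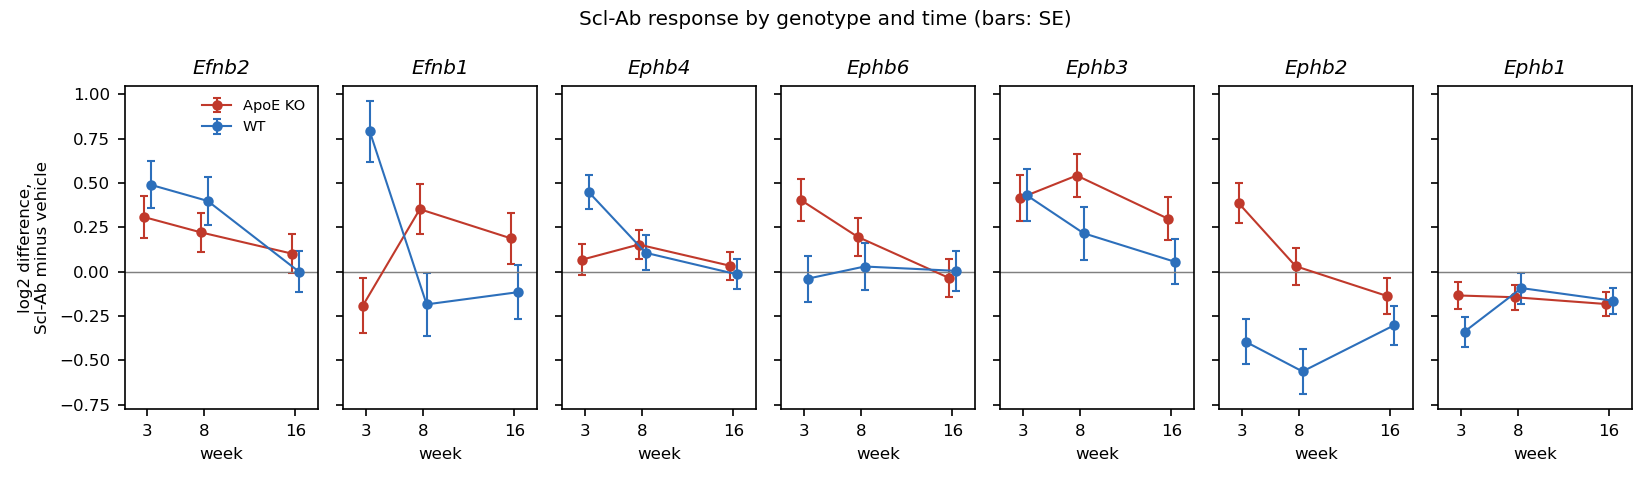
Each panel gives the log2 difference of a member, Scl-Ab minus vehicle (vertical axis, log2(value + 1) scale), against weeks of dosing, in KO mice (red) and WT mice (blue); bars are the SE. The Ephb2 lines lie apart at week 3, 0.39 in KO and -0.39 in WT mice, and come close at week 16, -0.14 and -0.30. The Efnb1 lines cross between weeks 3 and 8.

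Loss of ApoE was examined with the vehicle and Scl-Ab arms averaged, which weighs the treatment evenly. The knockout lowered Efnb2 and Ephb4 at week 16 and raised Ephb3 at weeks 3 and 8. Of these, only Efnb2 was called within each arm taken alone. Ephb1 is given apart, since it passed the filter mainly through WT libraries. Of the 6 other tested members, 1, 1 and 2 were called at weeks 3, 8 and 16, beside 25.6%, 37.8% and 54.4% of all genes. The share of members called was thus at no time above that of all genes.

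Efnb2 was the ligand with the clearest knockout difference, and it depended on time. At week 16 its values were 7.73, 9.83 and 11.5 in KO Scl-Ab and 7.29, 8.97 and 11.8 in KO vehicle libraries, against 10.9, 12.5 and 13.1 in WT Scl-Ab and 10.3, 11.9 and 15.3 in WT vehicle libraries. The 20 KO libraries averaged 9.39 ± 1.40 and the 18 WT libraries 12.2 ± 1.29 (SD), with overlap between 10.3 and 11.8. The difference was -0.35 ± 0.08 (limma adjusted p = 0.000104), and it was present within the Scl-Ab arm (-0.30 ± 0.12, limma adjusted p = 0.0287) and the vehicle arm (-0.40 ± 0.11, limma adjusted p = 0.00209).

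At week 3 the Efnb2 means lay the other way, 16.6 ± 2.54 in 17 KO and 14.4 ± 4.12 in 14 WT libraries (0.18 ± 0.09, limma adjusted p = 0.119). The knockout effect at week 16 minus that at week 3 was -0.53 ± 0.12 (limma adjusted p = 0.000793). Efnb2 was the only 1 of 7 members called for this change, beside 14.7% of all genes. Without the libraries of high carry-over it was -0.43 ± 0.15 and no longer passed (limma adjusted p = 0.110).

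The other ligand, Efnb1, had opposed differences in the Scl-Ab and vehicle arms at week 3. Its KO Scl-Ab values were 3.31, 3.96 and 9.70, against 4.74, 7.21 and 9.08 in WT Scl-Ab libraries (-0.49 ± 0.17, limma adjusted p = 0.0222). Its KO vehicle values were 2.58, 6.46 and 9.19, against 2.29, 3.18 and 6.71 in WT vehicle libraries (0.49 ± 0.16, limma adjusted p = 0.0178). Averaged over arms the difference was -0.00 ± 0.12 at week 3 and 0.15 ± 0.10 at week 16 (limma adjusted p = 0.233). The summed white adipocyte markers had the same order of medians, 1586 in KO Scl-Ab against 4545 in WT Scl-Ab and 3743 in KO vehicle against 1252 in WT vehicle libraries. Their part in Efnb1 was not tested.

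Among the receptors, Ephb4 was lower at week 16, at 11.4 ± 1.59 in KO and 12.6 ± 1.75 in WT libraries, a small difference (-0.14 ± 0.06, limma adjusted p = 0.0394) that was lost on leaving out any of 13 of the 38 libraries and after rescaling by median of ratios (-0.09). Within the arms the week 16 difference was -0.16 ± 0.08 under vehicle (limma adjusted p = 0.106) and -0.11 ± 0.08 under Scl-Ab (limma adjusted p = 0.294). With the arms averaged, Ephb4 differed by 0.00 ± 0.06 at week 3 and 0.02 ± 0.06 at week 8. Behind the week 3 value lay 0.19 ± 0.09 in the vehicle arm and -0.19 ± 0.09 in the Scl-Ab arm. Neither was called (limma adjusted p = 0.0972 and 0.132). Ephb3 was higher at week 3, at 3.92 ± 1.14 in KO and 3.06 ± 1.24 in WT libraries (0.25 ± 0.10, limma adjusted p = 0.0440), and at week 8, at 3.96 ± 1.38 and 3.16 ± 0.865 (0.26 ± 0.10, limma adjusted p = 0.0261). At week 3 the Ephb3 difference was 0.25 ± 0.14 within the Scl-Ab arm (limma adjusted p = 0.199) and 0.26 ± 0.13 within the vehicle arm (limma adjusted p = 0.135). At week 8 the difference was 0.42 ± 0.12 within the Scl-Ab arm (limma adjusted p = 0.00531) and 0.10 ± 0.15 within the vehicle arm (limma adjusted p = 0.709). The week 3 call was lost on leaving out any of 18 of the 31 libraries, and that of week 8 without WT vehicle replicate 1 or KO vehicle replicate 10. Without the libraries of high carry-over the Ephb3 differences were 0.05 and 0.24, and neither passed.

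With the arms averaged, Ephb1 was lower in KO libraries at each time. It averaged 0.548 ± 0.198 in KO and 0.818 ± 0.283 in WT libraries at week 3, 0.523 ± 0.202 and 0.803 ± 0.243 at week 8, and 0.472 ± 0.132 and 0.765 ± 0.183 at week 16. In a fit with no filter on low values, which does not depend on the WT libraries that carried it past the filter, the log2 differences were -0.20 ± 0.06, -0.26 ± 0.05 and -0.25 ± 0.05 (limma adjusted p = 0.00934, 0.000167 and 1.98e-05). At week 16 the KO Scl-Ab values (0.234 to 0.507) did not overlap the WT Scl-Ab values (0.547 to 0.757). The vehicle values did overlap, at 0.428 to 0.746 in KO and 0.640 to 1.21 in WT libraries. Within single arms, the main fit did not call Ephb1 at week 3 under Scl-Ab (-0.10 ± 0.08, limma adjusted p = 0.413). Nor was it called at week 8 under vehicle (-0.23 ± 0.09, limma adjusted p = 0.0536). The other arm differences lay between -0.30 and -0.24. At week 3 Ephb1 was not called with clock components (-0.09) or without libraries of high carry-over (-0.15). Its gene spans chr9:101922128-102354693 (GRCm38) and overlaps 9 other annotated genes, 3 on its own strand and 6 on the other. Reads may be shared with the former, and also with the latter because the use of strand in counting is not stated. Among the other members, Efnb2 overlaps 3 genes on its own strand and Ephb4 overlaps 1, Zan, on the other strand. Ephb2 differed by 0.20 ± 0.08, 0.07 ± 0.08 and 0.03 ± 0.08 at the 3 times (limma adjusted p = 0.0708 at week 3), and Ephb6 was not called at any time.

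**Figure D3:**
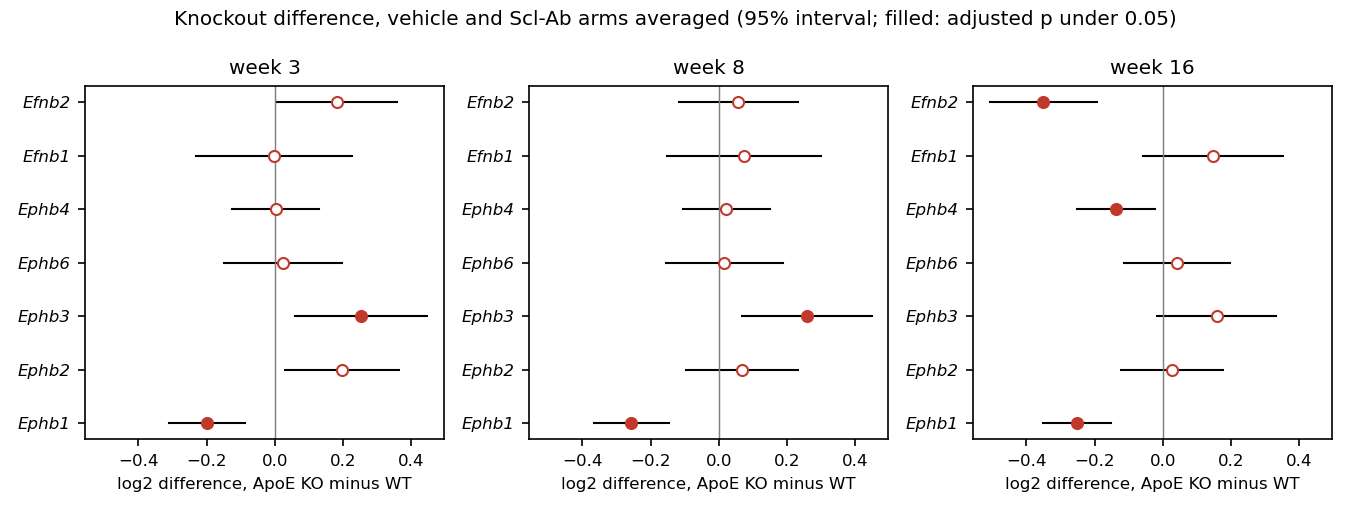
Points are log2 differences, KO minus WT with the arms averaged (horizontal axis), for each tested member at each week, with 95% intervals; filled points passed an adjusted p under 0.05 (for Ephb1 also with no filter on low values). Efnb2 moves across the line between week 3 (0.18) and week 16 (-0.35), and Ephb1 lies below 0 at every week.

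Cell type markers differed between the genotypes at week 16. All 10 macrophage markers were higher in KO libraries, with sums of 2035, 3008 and 3881 in KO Scl-Ab and 1339, 2251 and 4424 in KO vehicle, against 205, 264 and 453 in WT Scl-Ab and 204, 265 and 459 in WT vehicle libraries. Of 10 smooth muscle markers 9 were lower, of 12 endothelial markers 1 was higher and 3 lower, and of 9 tested chondrocyte markers 8 were higher. Tek, the endothelial angiopoietin receptor, averaged 9.80 ± 3.93 in KO and 14.9 ± 4.97 in WT libraries. Emcn, the 1 endothelial marker called higher, averaged 12.8 ± 5.43 in KO and 7.77 ± 3.47 in WT libraries. The part of these marker differences in the lower Efnb2 and Ephb4 values was not tested.

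Between weeks 3 and 16, with the vehicle and Scl-Ab arms averaged, the family split into members that rose and members that fell, in both genotypes. Of 7 members 5 were called in KO mice, beside 48.3% of all genes (21.6% higher, 26.7% lower), and 5 in WT mice, beside 37.8% (19.5% higher, 18.3% lower). Ephb2 and Ephb6 rose. Ephb2 averaged 2.02 ± 0.654, 2.35 ± 0.531 and 2.65 ± 0.410 in KO libraries at weeks 3, 8 and 16, and 1.65 ± 0.515, 2.09 ± 0.895 and 2.66 ± 0.710 in WT libraries. Week 16 minus week 3 was 0.31 ± 0.08 in KO mice (limma adjusted p = 0.000566) and 0.48 ± 0.08 in WT mice (limma adjusted p = 7.44e-06). Ephb6 rose by 0.29 ± 0.08 in KO mice (limma adjusted p = 0.00165) and by 0.27 ± 0.09 in WT mice (limma adjusted p = 0.00901). In KO mice these rises lay mostly in the vehicle arm. Mean log2(value + 1) at weeks 3 and 16 was 1.36 and 1.93 for Ephb2 and 1.90 and 2.41 for Ephb6 under vehicle. Under Scl-Ab it was 1.75 and 1.79 for Ephb2 and 2.31 and 2.38 for Ephb6. In WT mice both genes were higher at week 16 in each arm. Neither Ephb6 change passed with tissue scores as covariates, at 0.15 in KO mice (limma adjusted p = 0.0557) and 0.09 in WT mice (limma adjusted p = 0.506), and that of WT mice was 0.03 without the libraries of high carry-over (limma adjusted p = 0.914). For Ephb2 the change in KO mice was lost with clock components (0.13, limma adjusted p = 0.370) and without high carry-over (0.21, limma adjusted p = 0.0544).

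Efnb2 and Ephb4 fell. Efnb2 means were 16.6, 14.4 and 9.39 in KO libraries at weeks 3, 8 and 16, and 14.4, 14.8 and 12.2 in WT libraries. The change was -0.75 ± 0.08 in KO mice (limma adjusted p = 6.60e-13) and -0.21 ± 0.09 in WT mice (limma adjusted p = 0.0461). The difference between these falls is the -0.53 given above. Ephb4 changed by -0.31 ± 0.06 in KO mice (limma adjusted p = 7.32e-06) and by -0.17 ± 0.06 in WT mice (limma adjusted p = 0.0265). In WT mice these falls lay in the Scl-Ab arm. Mean log2(value + 1) at weeks 3 and 16 was 4.17 and 3.71 for Efnb2 and 4.15 and 3.75 for Ephb4 under Scl-Ab. Under vehicle it was 3.68 and 3.71 for Efnb2 and 3.70 and 3.76 for Ephb4. In KO mice both genes were lower at week 16 in each arm. Changes over time were not tested within arms.

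Other members passed in a single genotype, without a called difference between them. Ephb3 fell in KO mice (-0.31 ± 0.09, limma adjusted p = 0.00281) and was at -0.21 ± 0.10 in WT mice (limma adjusted p = 0.0734). Efnb1 was at -0.18 ± 0.11 in KO mice (limma adjusted p = 0.158) and fell in WT mice (-0.33 ± 0.11, limma adjusted p = 0.0180). Its WT mean log2(value + 1) went from 2.97 to 2.19 under Scl-Ab and from 2.18 to 2.31 under vehicle. The WT calls of Efnb1, Ephb4 and Efnb2 were lost on leaving out 1, any of 4 and any of 18 libraries; for Efnb1 that library was WT vehicle replicate 4 of week 3 (-0.27, limma adjusted p = 0.0540). Weeks, ages and possibly sequencing batches go together and cannot be told apart. Adipocyte markers fell over the same span, 7 of 10 white and 8 of 10 brown in KO mice and 9 of 10 of each in WT mice. With the clock components as covariates, the changes of Efnb2 in WT mice and of Ephb3 in KO mice were both 0.18 and not called. The part of these markers in the falls was not tested.

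Across the 12 group means, Efnb2 and Ephb4 ran together and Ephb2 ran against them. Pearson's r of Efnb2 with Ephb4 was 0.906 over the 12 group means, against 0.227 over all libraries after removal of the group means. Ephb2 had r = -0.68 with Ephb4 and 0.671 with Ephb6 over group means, and -0.323 and 0.324 within groups. With Efnb2 it was at -0.592 over group means and -0.208 within groups. The group means of Ephb2 include the response to Scl-Ab on which the family was chosen. Ephb3 had r = 0.707 with Efnb2 over group means and 0.430 within groups. Ephb4 and Efnb1 were at 0.703 and 0.584. All of these values come from the same libraries, which share depth, scaling and tissue makeup, so they are descriptions.

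**Figure D4:**
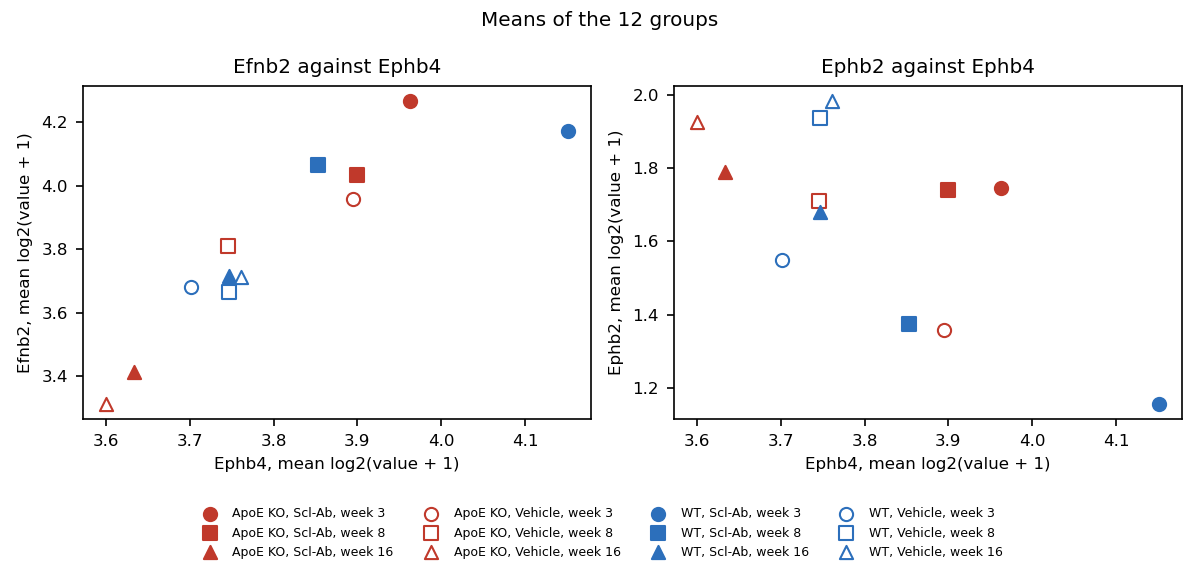
Each point is the mean log2(value + 1) of 1 of the 12 groups; the left panel sets Efnb2 (vertical) against Ephb4 (horizontal), and the right panel Ephb2 against Ephb4, with colour for genotype, fill for Scl-Ab or vehicle and shape for week. Efnb2 climbs with Ephb4 (r = 0.906), with the KO groups of week 16 at the lower left, while Ephb2 declines (r = -0.68), with WT Scl-Ab of week 3 at the lower right.

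The genes whose 12 group means tracked each member most closely were chosen by Pearson's r. For Efnb2 these were Gpsm2 (0.959), Calcrl (0.956), the endothelial receptor of adrenomedullin, and Ptch1 (0.954), the Hedgehog receptor. For Ephb4 they were Slc9a3r2 (0.948), Fut8 (0.945) and Pald1 (0.944), and for Efnb1 Nadk (0.968), Slc7a10 (0.968) and Dagla (0.966). For Ephb2 they were Tns3 (0.939), a focal adhesion protein, Prmt2 (0.939) and Cdh11 (0.929), a cadherin of mesenchymal cells. For Ephb3 they were Lrtm2 (0.974), Rarg (0.967) and Samd1 (0.956), and for Ephb6 Eftud2 (0.943), Tbc1d2b (0.911) and Sec22c (0.905). For Ephb1 they were Vps37a (0.985), Cul5 (0.981) and Mapk8 (0.980). Over all libraries after removal of the group means, r of these genes with their member was lower, between 0.0924 (Fut8) and 0.766 (Lrtm2). It was 0.188 for Prmt2, 0.258 for Eftud2, 0.261 for Mapk8 and 0.316 for Vps37a, and at least 0.455 (Cul5) for the others.

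Genes around the family were also counted in the knockout comparison. Over all tested genes, 13.1%, 16.5% and 21% rose and 12.4%, 21.3% and 33.5% fell at weeks 3, 8 and 16, and every list below is read against these shares. Of 23 tested effectors of EphB receptors, 5, 5 and 6 rose and 2, 3 and 8 fell in KO mice at weeks 3, 8 and 16. Inpp5d, the inositol phosphatase SHIP1 of blood cells, averaged 10.7 ± 2.20 in KO and 3.67 ± 0.775 in WT libraries at week 16 (1.31 ± 0.10, limma adjusted p = 4.15e-20). Vav2 averaged 6.92 ± 0.954 in KO and 3.93 ± 0.372 in WT libraries (0.68 ± 0.06, limma adjusted p = 1.48e-17). Grb2, an adaptor, rose by 0.35 ± 0.04 (limma adjusted p = 1.03e-11).

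Of 12 tested effectors of ephrin-B reverse signalling, 2, 3 and 2 rose and 0, 1 and 6 fell at the 3 times. Their median difference at week 16 was -0.21, against -0.05 for all genes. Sdcbp, the PDZ protein syntenin, rose by 0.35 ± 0.05 (limma adjusted p = 1.48e-08). Tjp1 (ZO-1) changed by -0.40 ± 0.07 and Grip2, a PDZ scaffold, by -1.04 ± 0.17 (limma adjusted p = 1.62e-07 and 2.80e-07).

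Of 19 tested proteases and phosphatases that act on Eph and ephrin proteins, 8, 11 and 12 rose and 0, 2 and 4 fell. Adam8, a metalloprotease of myeloid cells, averaged 26.1 ± 8.43 in KO and 0.868 ± 0.467 in WT libraries at week 16 (3.82 ± 0.14, limma adjusted p = 1.24e-42). Ptpn1 (PTP1B) rose by 0.98 ± 0.07 (limma adjusted p = 1.65e-22) and Ptpro by 1.14 ± 0.10 (limma adjusted p = 7.30e-18). All 10 macrophage markers rose in the same comparison, and their part in these differences was not tested.

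Among the 9 tested EphA receptors and ephrin-A ligands, 1, 2 and 2 rose and 1, 1 and 4 fell, and 5 more of the list were not tested. At week 16 Epha1 averaged 2.22 ± 0.529 in KO and 4.04 ± 0.595 in WT libraries (-0.65 ± 0.08, limma adjusted p = 3.66e-12). Epha3 changed by -0.53 ± 0.11 and Efna1 by 0.40 ± 0.09 (limma adjusted p = 2.54e-05 and 0.000142). Of 21 genes of arterial and venous identity, 4, 7 and 6 rose and 0, 0 and 1 fell. At week 16 Cxcr4, a chemokine receptor also of leukocytes, rose by 2.53 ± 0.14, Nrp2 by 1.36 ± 0.15 and Unc5b by 0.54 ± 0.10 (limma adjusted p = 1.15e-30, 1.24e-12 and 2.08e-06).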

How the data were processed

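RNA of the aortic arch was sequenced with a stranded mRNA kit, 1 mouse per library, so replicates are separate animals. The deposited values are FPKM-type values per gene symbol in a column named FPKQ, a term the labels do not define; 1 file had no header line. DESeq2 1.10.1 and GRCm38 appear, with no role given, per the submitters' processing notes. For the aligner, the counter, the annotation and strand: not given in the sources used here. Read depth is unknown, so no counting interval can be given. Column sums ran from 494635 to 826445, 12405 to 13338 genes reached 1 per library, and relative depth, approximated from low values, ran from 0.818 to 1.58.

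Genes had to reach 1 in 5 or more libraries (14637 did, including 7 of the 8 members), and log2(value + 1) was fitted in limma 3.58.1 (R 4.3.3; 12 group means, trended and robust empirical Bayes). The offset understates changes of low genes. A gene was called at a two-sided Benjamini-Hochberg adjusted p under 0.05 over all tested genes. The script was tested on simulated data. Sequencing ran in 3 batches that the study's text does not assign to libraries, so day, age and batch cannot be told apart.

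All members are named. Of the other genes, up to 3 called members of a list with the smallest adjusted p in each knockout comparison could be named, and the 3 genes most correlated with each member over the 12 group means. The members, lists and alternatives were chosen with earlier results of these data known. Alternatives covered the pseudocount, filter, scaling, weights, replicate block, arms, carried-over tissue (scores as covariates, or leaving out 26 libraries over 2.5 median absolute deviations above the median), clock components, runs of animal numbers, and leaving out each library. Leaving out single libraries of weeks 3 and 16 for changes over time, and all libraries for the averaged Ephb2 contrast, was added after seeing the data. Gene positions come from GENCODE M21 and promoters from RefSeq.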

Additional observations from a re-analysis of the deposited data

Results flagged for a closer look

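In 96 combinations of a member and a group, 9 held a library whose value stood apart from the others of its group (Dixon's criterion), where chance gives about 1 in 20 groups. They are given as values. Ephb1 was 1.32 in WT vehicle replicate 5 of week 8, and 0.725 to 0.812 in the other 4. Ephb3 was 4.95 in KO vehicle replicate 10 of week 8, and 2.00 to 3.46 in the others; it was 3.01 in WT vehicle replicate 1 of week 16, and 2.17 to 2.56 in the others. Ephb6 was 3.23 in WT vehicle replicate 1 of week 8, and 4.27 to 4.63 in the others. It was 3.05 in KO vehicle replicate 2 of week 16, and 3.92 to 4.92 in the others.

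Among the ligands, Efnb2 was 18.0 in KO vehicle replicate 8 of week 3, and 13.3 to 15.1 in the others. Efnb1 was 9.70 in KO Scl-Ab replicate 9 of week 3, and 3.31 to 6.05 in the others. In the same library Efnb3 was 1.43, and 0.0341 to 0.221 in the others. Efnb3 was 0.464 in WT vehicle replicate 4 of week 3, and 0.0780 to 0.232 in the others. These last libraries also ranked 1 and 2 of all libraries for summed skeletal muscle markers, and 2 and 1 for the cardiomyocyte markers.

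The knockout effect on Efnb2 differed between times, by -0.53 ± 0.12 on the log2 scale at week 16 minus week 3 (limma, adjusted p = 0.000793); at week 16, KO means were lower than WT means in both the Scl-Ab and the vehicle arm.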

How the results depend on the processing

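Counts of called members, Ephb1 included, moved with the processing, and the causes were not tested. For the knockout, the 2 called at week 3 became 1 with no filter, a filter of 5, quantile normalization, libraries of the day alone, clock components or Scl-Ab libraries only, and 0 without libraries of high carry-over. Of all genes, 3743 were called in the main fit, and between 1501 (clock components) and 4157 (quantile normalization) under these settings. The 2 at week 8 became 1 with no filter, a filter of 5, quantile normalization, clock components or no high carry-over, and 0 with vehicle libraries only. Of all genes, 5538 were called in the main fit, and between 2268 (vehicle libraries only) and 6161 (quantile normalization) under these settings. The 1 change of the knockout effect became 0 without high carry-over, while the genes called went from 2146 to 369. For Scl-Ab, the 5 of WT week 3 became 0 with clock components and 1 without high carry-over. The genes called there went from 3937 to 0 and 299. With tissue scores the count stayed at 5 members, with 1037 genes called. The 2 of KO week 3 became 1 with no filter or without high carry-over, and 0 with the day alone or clock components. In that order, the genes called went from 1339 to 893, 869, 203 and 871. The 1 of KO week 8 became 3 with array weights and 0 with clock components, while the genes called went from 265 to 1927 and 0. The 5 changes over time in WT mice became 3 with no filter, tissue scores or clock components, and 2 without high carry-over. In that order, the genes called went from 5528 to 5366, 1615, 3106 and 812. A filter of 5 removes Ephb1 and Ephb2 from the test. Leaving out 1 library gave 1 to 3 and 1 to 2 members for the knockout at weeks 3 and 8, 0 to 3 for Scl-Ab in KO mice at week 3, and 3 to 6 over time in WT mice, with 3 without WT Scl-Ab replicate 6 of week 3 or WT vehicle replicate 10 of week 16. The genes called in these comparisons then ran from 3252 to 4331, 5019 to 5705, 554 to 3512 and 4569 to 6058. The averaged Ephb2 contrast was 0.76 with a pseudocount of 0.1, where 0.51 was reported. Reversed were the Efnb1 knockout difference at week 3 in vehicle libraries only (0.49), and, with clock components, week 16 minus week 3 of Efnb2 in WT mice (0.18) and of Ephb3 in KO mice (0.18), which were then not called; a change of sign of a value called under neither setting was not counted. The Efnb2 knockout difference at week 16 stayed called, between -0.37 and -0.33 on leaving out any library of that week. Same-numbered libraries of a day had a median r of 0.0627 across groups (other pairs -0.00182). Of 139 such pairs 62 exceeded 0.1, against 385 of 1184 other pairs. The main fit did not pair mice by number. A replicate block changed the call of 1 value, Efnb2 over time in WT mice (-0.20, limma adjusted p = 0.0712). Unknown read depth limits Efnb3 and Ephb1 most.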
